A study of Bos taurus with 6 samples.

Results

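The cytosolic ribosomal protein genes were followed across forebrain, liver and rumen of fetal cattle. Members were the rows of the count table whose symbol has the form RPL or RPS plus a number and an optional A, X, Y or L ending, together with RPLP0, RPLP1, RPLP2 and RPSA, and without the RPS6K kinases. The rule found 82 of the 14179 gene symbols of the table, 33 named for the small subunit and 49 for the large subunit. Of the 82, 7 are paralogs, second genes that resemble a standard ribosomal protein gene (RPL3L, RPL7L1, RPL10L, RPL22L1, RPL26L1, RPS27L and RPS4Y1). The members were chosen by name and not by their values. RPL22 and RPL41 were not analysed here, and FAU and RACK1, which also encode ribosomal components, fall outside the rule and are given separately.

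Ribosomes read messenger RNA and join amino acids into protein. The small subunit binds the message and decodes it, while the large subunit joins the amino acids and lets the new chain out through an exit tunnel. Most ribosomal proteins are needed in equal copy number in each ribosome, and their messages share a pyrimidine tract at the 5′ end (5′ TOP) through which the kinase complex mTORC1 controls their translation. A few members differ by role: RPLP0, RPLP1 and RPLP2 form the stalk that recruits translation factors, RPL5 and RPL11 carry the 5S RNA and can bind MDM2, RPS6 is the target of the S6 kinases, and RPSA also serves as a laminin-binding protein.

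Poly(A) RNA was sequenced from male Holstein fetuses with genotype given as WT, at 90 days of gestation and 13 to 16 cm from crown to rump. Each tissue had 2 libraries, numbered 1 and 2. Of the 4 fetuses collected 2 were male, so at most 2 fetuses lie behind the 6 libraries, and no label ties a library to a fetus. The p-values therefore reflect only the variation among these libraries, which may be technical, and whole tissues were sampled, so more cells of a type and more RNA per cell cannot be told apart.

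Total counts ran from 10271024 (Forebrain 1) to 18528958 (Liver 2), and 11048 to 11748 genes had counts in a library. Each level below is in CPM, a gene's counts relative to the library total after TMM scaling, which sets libraries on a common scale by the genes that differ least. The tissue labels were checked on marker genes. Forebrain had 11021 to 11493 CPM summed over 6 neuron markers, rumen 430 to 464 and liver 63.7 to 82.4. The 5 radial glia markers did not set forebrain clearly apart from rumen, with 1421 and 1985 CPM against 1419 and 1425. In liver they summed to 191 and 131 CPM. Summed CPM of 6 hepatocyte markers was 182559 to 215909 in liver and at most 134 elsewhere, and that of 6 stratified epithelium markers was 11589 to 14233 in rumen and at most 182 elsewhere. The 2 liver libraries stood apart from each other in their 7 erythroid markers, with 147036 CPM in Liver 1 and 55282 CPM in Liver 2 (the highest other library had 546 CPM).

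Ribosomal protein genes took more of the counts in rumen than in forebrain, and more in forebrain than in liver. Their share of all counts was 12.7% in Forebrain 1 and 15.2% in Forebrain 2, 6.56% in Liver 1 and 7.87% in Liver 2, and 29.6% in Rumen 1 and 26.9% in Rumen 2. The tissues did not overlap, with rumen at the top, forebrain between and liver at the bottom. Means were 28.3% ± 1.89 (SD, n = 2) in rumen, 13.96% ± 1.71 (SD, n = 2) in forebrain and 7.21% ± 0.925 (SD, n = 2) in liver. The mean share of rumen was thus 2.03 times that of forebrain and 3.92 times that of liver. With n = 2 per tissue no test was made of the summed share.

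**Figure D1:**
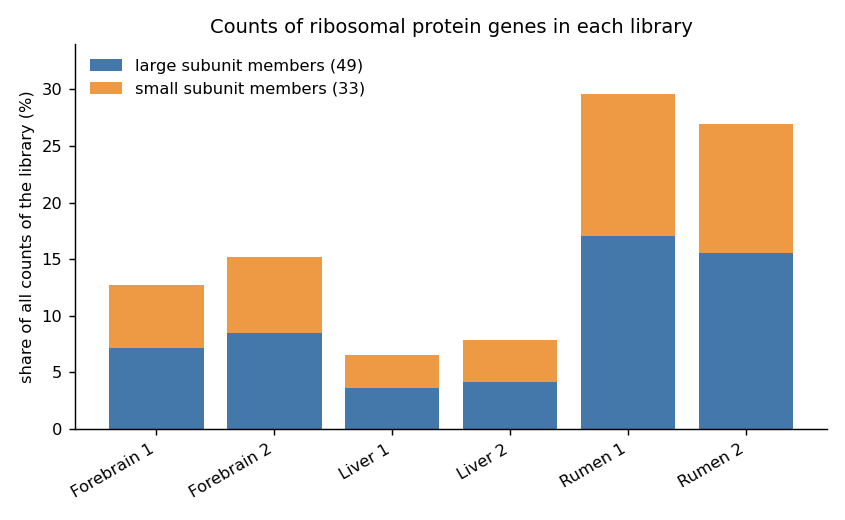
Share of all counts (%, from 0) taken by the 82 ribosomal protein genes in each of the 6 libraries, stacked as 49 large subunit and 33 small subunit members. Both rumen bars, at 29.6% and 26.9%, stand above both forebrain bars (12.7% and 15.2%) and both liver bars (6.56% and 7.87%).

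The rest of the libraries differed too. The 50 non-member genes with the most counts took 39.3% and 32.98% of counts in Liver 1 and 2, against 9.32% and 10.008% in forebrain and 11.93% and 11.95% in rumen. In liver these were led by AHSG, the plasma protein fetuin-A, at 6.85% of counts and HBG, a globin, at 6.004%. With those 50 genes left out of the total, the member share was 11.3% in liver and 32.1% in rumen. On the TMM scale the members summed to 292601 and 251015 CPM in the rumen libraries, 106486 and 134593 in those of forebrain and 80821 and 93644 in those of liver. On that scale rumen was 2.25 times forebrain and 3.12 times liver, and forebrain was 1.38 times liver rather than the 1.93 times seen in the plain share.

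The small subunit share of the member counts lay between 42.4% and 47.5% in all 6 libraries. Small subunit members gave 44.7% and 47.5% of member counts in liver, 43.7% and 43.9% in forebrain and 42.6% and 42.4% in rumen. Liver lay above both other tissues and its own libraries were the least alike. Counts are not corrected for transcript length, so these values compare tissues and not genes. Without the 5 members with the most counts over all libraries the member share was 24.1% in rumen, 11.8% in forebrain and 6.22% in liver, in the same order.

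Of the 82 members 81 had enough counts to be tested. The exception was RPL10L, in many mammals a testis-expressed copy of RPL10, which had no counts in any library. At the depth of both libraries together, 3 counts would correspond to 0.103 CPM in liver, 0.115 CPM in forebrain and 0.116 CPM in rumen. RPL3L, known from heart and skeletal muscle, was tested on very few counts, with 4 and 7 in Rumen 1 and 2, 12 and 9 in Forebrain 1 and 2, and 8 and 23 in Liver 1 and 2. Both rumen libraries lay below the other 4 on the CPM scale and liver overlapped forebrain, and none of the 3 comparisons of levels passed.

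Most members were higher in rumen than in forebrain. With p-values from the quasi-likelihood test of edgeR, adjusted by the Benjamini-Hochberg method over all 11478 genes, and a threshold of 0.05, 63 of the 81 were higher, 0 were lower and 18 did not pass. At an unadjusted p under 0.05 edgeR gave 1 member lower, RPL26L1, which DESeq2 also called lower after adjustment while limma-voom called 0. Among all tested genes 20.3% were higher and 21.5% were lower. The median log2 fold change was 1.16 over the members, with an interquartile range of 0.83 to 1.42, and −0.01 over all tested genes. Both rumen libraries lay above both forebrain libraries for 76 members and below them for 3, against 39.7% and 41.4% of all tested genes. The median over the members was 1.03 without Forebrain 1, 1.37 without Forebrain 2, 1.04 without Rumen 1 and 1.30 without Rumen 2. Of the 81 log2 fold changes 78 were positive when either forebrain library or Rumen 2 was left out, and 76 without Rumen 1. The count of 63 rested on single libraries. It fell without any one of the forebrain or rumen libraries, as did the share of all tested genes called higher. Without Forebrain 1 or Rumen 1 the count was close to that share, and without Forebrain 2 or Rumen 2 it stayed above it. Without Liver 1 or Liver 2, which share the fit but not the contrast, it was 74 and 75, with RPL26L1 and RPS4Y1 lower in each case.

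RPL36, a large subunit protein, had the largest difference between rumen and forebrain. It stood at 2399 and 1677 CPM in the rumen libraries, 391 and 625 in those of forebrain and 404 and 428 in those of liver. Both rumen libraries were far above the other 4, which overlapped each other. RPL36 was 4.01-fold higher in rumen than in forebrain (log2 2.00 ± 0.32, SE, edgeR adjusted p = 0.00306) and 4.90-fold higher than in liver (log2 2.29 ± 0.32, SE, edgeR adjusted p = 0.00176). In RefSeq the span of RPL36 overlaps that of the protease gene LONP1. How much of the exons is shared, and on which strands the 2 genes lie, was not examined.

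RPL27A followed, with 4473 and 3566 CPM in Rumen 1 and 2, 1011 and 1290 in Forebrain 1 and 2, and 988 and 1486 in Liver 1 and 2. RPS9, a small subunit protein that helps set decoding accuracy, was at 4269 and 3831 CPM in the rumen libraries, 997 and 1349 in those of forebrain and 1253 and 1789 in those of liver. RPL23 was at 5494 and 4782 CPM in Rumen 1 and 2, 1374 and 1767 in Forebrain 1 and 2, and 912 and 1374 in Liver 1 and 2. In each of the 3 genes both rumen libraries stood well above the other 4, which lay between 912 and 1789 CPM. Rumen was 3.49-fold above forebrain for RPL27A (adjusted p = 0.00456 by edgeR), 3.45-fold for RPS9 (adjusted p = 0.00417 by edgeR) and 3.27-fold for RPL23 (adjusted p = 0.00565 by edgeR). RPL36, RPL27A and RPS9 passed whichever single library was left out, as did RPL3, RPL7 and RPL26, while RPL23 did not pass without Forebrain 1 or without Rumen 1. RPS9 overlaps the provisional gene LOC107131323.

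The distance from liver was wider still. In rumen 69 of the 81 members were higher than in liver, 0 were lower (0 also at an unadjusted p under 0.05 by edgeR, DESeq2 and limma-voom) and 12 did not pass, beside 21.2% of all tested genes higher and 21.8% lower. The median log2 fold change was 1.58 over the members (interquartile range 1.16 to 2.07) and −0.06 over all tested genes. Both rumen libraries were above both liver libraries for 77 members and below for 1, against 34.6% and 34.6% of all tested genes. The count fell without either rumen library, but the share of members called higher stayed above that of all tested genes. The median was 1.49 without Rumen 1, 1.68 without Rumen 2, 1.42 without Liver 1 and 1.75 without Liver 2. RPL7L1 was called lower without Liver 1, and RPS4Y1 without Liver 2. With plain totals in place of TMM, 76 members were higher and the median was 1.92. That scaling moved the median of all tested genes from −0.06 to 0.23 and the share of calls that were higher from 49.3% to 62.2%, so the members' median lay 1.69 above that of all genes, beside 1.65 with TMM.

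**Figure D2:**
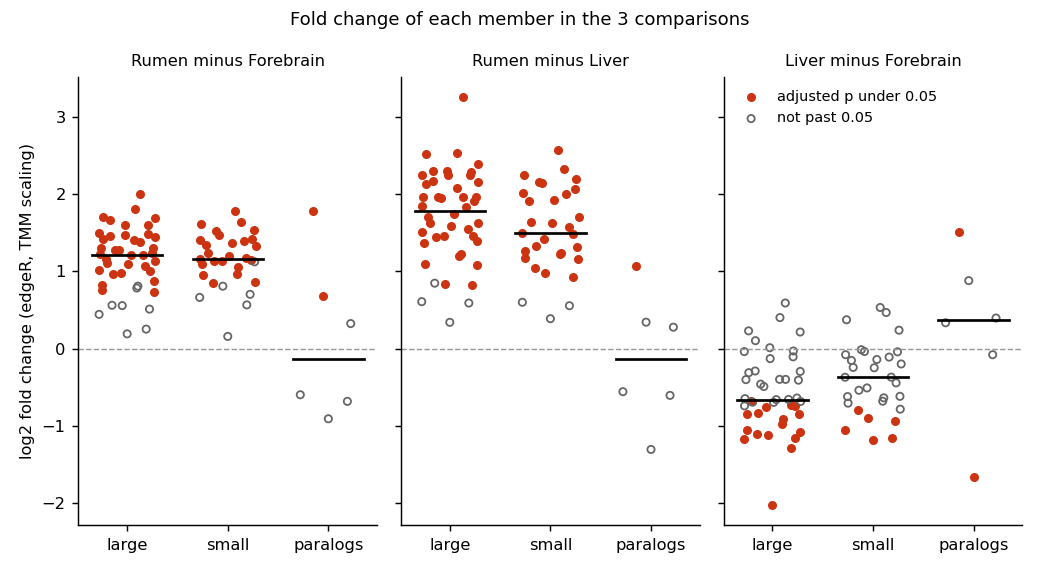
Log2 fold change (edgeR, TMM scaling) of each of the 81 tested members in the 3 comparisons, by large subunit, small subunit and paralogs; filled points have adjusted p under 0.05, open points do not, and bars are medians. In both rumen comparisons the standard members of either subunit lie above 0, and the 6 paralogs spread on both sides of it.

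RPL39, a small protein that lines the exit tunnel, was the member that differed most from liver. It was at 2841 and 2694 CPM in the rumen libraries, 1038 and 1315 in those of forebrain and 312 and 270 in those of liver. The 3 tissues did not overlap, with rumen highest and liver lowest. Rumen was 9.51-fold above liver (log2 3.25 ± 0.26, SE, edgeR adjusted p = 0.000198) and liver was 4.04-fold below forebrain (log2 −2.02 ± 0.25, SE, edgeR adjusted p = 0.000636). Against forebrain, rumen was 2.35-fold higher (edgeR adjusted p = 0.00726), a call lost without Forebrain 1, Rumen 1 or Rumen 2. Both liver differences of RPL39 passed whichever library was left out.

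The next largest distances from liver were in RPS25, RPL26, RPL17 and RPL23A. RPS25, a small subunit protein used in initiation on viral internal entry sites, had 4747 and 4217 CPM in Rumen 1 and 2, 1452 and 1908 in Forebrain 1 and 2, and 707 and 801 in Liver 1 and 2. RPL26, which sits at the mouth of the tunnel, had 2565 and 2419 CPM in the rumen libraries, 822 and 950 in those of forebrain and 464 and 395 in those of liver. RPL17 had 6441 and 5850 CPM in Rumen 1 and 2, 2069 and 2553 in Forebrain 1 and 2, and 1149 and 998 in Liver 1 and 2. As in RPL39, all 3 genes were lowest in liver, intermediate in forebrain and highest in rumen with no overlap. Rumen exceeded liver 5.94-fold for RPS25 (edgeR adjusted p = 0.000615), 5.80-fold for RPL26 (edgeR adjusted p = 0.000361) and 5.72-fold for RPL17 (edgeR adjusted p = 0.000717). RPL23A, a docking site for chaperones and the signal recognition particle, had 916 and 1135 CPM in liver and 5780 and 4979 in rumen, 5.25-fold apart (edgeR adjusted p = 0.00133). These 4 calls held without any single library. RPS25 overlaps CENATAC in RefSeq.

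Between liver and forebrain most members did not pass. By the same test 24 of 81 were lower in liver, 1 was higher (RPS27L) and 56 did not pass, beside 27.3% of all tested genes lower and 30.5% higher, so the share of members called lower was close to that of all genes. The median log2 fold change was −0.49 over the members (interquartile range −0.78 to −0.08) and 0.14 over all tested genes, and 67 members had a negative and 14 a positive value. Both liver libraries lay below both forebrain libraries for 47 members and above for 8, against 37.8% and 40.1% of all tested genes. These counts moved with the settings. With plain totals 53 members were lower and the median was −0.97, with the median of all tested genes at −0.34 and 39.2% of all calls higher, beside 52.8% with TMM. The count of 24 fell without any one of the forebrain or rumen libraries and rose without either liver library. In each refit without a forebrain or rumen library the share of members called lower was below that of all tested genes. The median was −0.64 without Forebrain 1, −0.32 without Forebrain 2, −0.49 without Rumen 1 and −0.49 without Rumen 2. It was −0.38 without Liver 1 and −0.59 without Liver 2.

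Among the members lower in liver, RPL37 had 1187 and 1621 CPM in forebrain and 525 and 625 in liver, a 2.44-fold difference (edgeR adjusted p = 0.00891). RPS7, which can bind MDM2, had 2339 and 2857 CPM in forebrain and 1268 and 1025 in liver, a 2.27-fold difference (edgeR adjusted p = 0.0116). RPL31 had 2825 and 3583 CPM in forebrain and 1068 and 1777 in liver, a 2.25-fold difference (edgeR adjusted p = 0.0246). In all 3 the tissues did not overlap, with the 2 liver libraries farthest apart in RPL31. None of the 3 passed without Forebrain 2, and RPL31 also failed without Forebrain 1, Rumen 1 or Rumen 2.

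By subunit, without the paralogs, most members of both were higher in rumen. Of 31 small subunit members 25 were higher in rumen than in forebrain and 28 higher than in liver, with median folds of 2.23 and 2.83. Of 44 large subunit members 36 and 40 were higher, with median folds of 2.32 and 3.45. In liver against forebrain 6 small subunit members (median log2 fold change −0.37) and 17 large subunit members (median −0.66) were lower. Of all tested genes 20.3% were higher in rumen than in forebrain, 21.2% higher than in liver, and 27.3% lower in liver than in forebrain. These shares are those of the full fit and fell for all tested genes when a forebrain or rumen library was left out. Against forebrain the 25 small and 36 large subunit members then became fewer in every case. Without Forebrain 1 or Rumen 1 the share of small subunit members higher was below that of all tested genes. That of large subunit members was a little above it. Against liver the 28 and 40 became fewer without either rumen library but stayed above the share of all tested genes. The 6 and 17 lower in liver became fewer without any one of the forebrain or rumen libraries, with both shares below that of all tested genes. They became more without either liver library. The difference between the subunits was not tested.

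By role, 7 proteins around the exit tunnel were listed (RPL17, RPL19, RPL23A, RPL26, RPL31, RPL35 and RPL39). All 7 were higher in rumen than in liver, 6 were higher in rumen than in forebrain and 6 were lower in liver than in forebrain, with median log2 fold changes of 2.39, 1.23 and −1.12, beside 21.2%, 20.3% and 27.3% of all tested genes. Only RPL26 was still higher than in forebrain without Forebrain 1, Rumen 1 or Rumen 2, and fewer were higher without Forebrain 2. Only RPL39 was still lower in liver without Forebrain 2, and fewer were lower without Forebrain 1, Rumen 1 or Rumen 2. The share of all tested genes called fell in these refits too, and a single call of 7 lies near it. In rumen against liver all or nearly all passed whichever library was left out. RPL35 was the listed tunnel protein that did not pass between rumen and forebrain, at 5041 and 3803 against 2132 and 2914 CPM. RPL19 was the one that did not pass between liver and forebrain, with 1001 and 1743 CPM in liver and 1684 and 2166 in forebrain. RPL4, which also borders the tunnel, was not among the 7 listed. Its log2 fold changes were 1.48 in rumen against forebrain and 1.585 in rumen against liver. Between liver and forebrain RPL4 did not pass (log2 −0.10, edgeR adjusted p = 0.761). The 7 were listed with earlier results of these data known, so their medians are a description.

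Of the stalk proteins RPLP1 and RPLP2 passed in both rumen comparisons and RPLP0 in none. RPLP1 was at 13599 and 11698 CPM in the rumen libraries, 3458 and 4854 in those of forebrain and 2288 and 2847 in those of liver. It was 3.04-fold higher in rumen than in forebrain (edgeR adjusted p = 0.00991) and 4.93-fold higher than in liver (edgeR adjusted p = 0.0025). RPLP2, its partner in the stalk dimers, was at 2413 and 2106 CPM in Rumen 1 and 2, 683 and 1047 in Forebrain 1 and 2, and 671 and 913 in Liver 1 and 2, 2.61-fold (edgeR adjusted p = 0.011) and 2.85-fold higher (edgeR adjusted p = 0.00778). RPLP0, the scaffold on which both sit, was at 3805 and 3395 CPM in the rumen libraries, 2185 and 2691 in those of forebrain and 3123 and 1656 in those of liver, and passed in none of the 3 comparisons. Rumen was the highest tissue for RPLP0 too, but its distance to Liver 1 was small and the liver libraries spanned the forebrain range. The calls of RPLP1 and RPLP2 against forebrain were lost without Forebrain 1, Rumen 1 or Rumen 2, and that of RPLP2 against liver without Rumen 1.

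Of the partners of 5S RNA, RPL5 passed in both rumen comparisons and RPL11 in the one with liver. RPL5 was at 6475 and 6398 CPM in Rumen 1 and 2, 2156 and 2494 in Forebrain 1 and 2, and 1172 and 1444 in Liver 1 and 2. It was 2.77-fold higher in rumen than in forebrain (edgeR adjusted p = 0.00593) and 4.92-fold higher than in liver (edgeR adjusted p = 0.00102). RPL11 was at 991 and 806 CPM in the rumen libraries, 635 and 686 in those of forebrain and 434 and 570 in those of liver. RPL11 did not pass between rumen and forebrain (edgeR adjusted p = 0.177) and was 1.79-fold higher in rumen than in liver (edgeR adjusted p = 0.0282), a call lost without Forebrain 1, Forebrain 2, Rumen 1 or Rumen 2. The rumen call of RPL5 against forebrain was lost without Forebrain 1, Rumen 1 or Rumen 2, while that against liver held without any single library.

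RPS6 and RPS19 were higher in rumen than in both other tissues. RPS6 was at 4602 and 4172 CPM in Rumen 1 and 2, 1509 and 1839 in Forebrain 1 and 2, and 1115 and 1707 in Liver 1 and 2, 2.62-fold higher in rumen than in forebrain (edgeR adjusted p = 0.0112) and 3.11-fold higher than in liver (edgeR adjusted p = 0.00595). RPS19, the gene most often mutated in Diamond-Blackfan anaemia, a failure of red cell formation, was at 5453 and 4381 CPM in the rumen libraries, 1650 and 2261 in those of forebrain and 1073 and 1369 in those of liver. It was 2.51-fold higher in rumen than in forebrain (edgeR adjusted p = 0.0127) and 4.03-fold higher than in liver (edgeR adjusted p = 0.00257). In both genes the rumen libraries lay well above the other 4. The forebrain calls of RPS6 and RPS19 were lost without Forebrain 1, Rumen 1 or Rumen 2 (that of RPS6 also without Forebrain 2), and the liver call of RPS6 without Rumen 1.

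RPSA had an order that most members did not share. It stood at 4691 and 4055 CPM in Rumen 1 and 2, 2185 and 2643 in Forebrain 1 and 2, and 3145 and 3535 in Liver 1 and 2. Both liver libraries lay above both forebrain libraries and below both rumen libraries, as also in RPL3, RPL8, RPL10A, RPL22L1 and RPS12. Rumen was 1.81-fold above forebrain (edgeR adjusted p = 0.0427), a call lost without any one of the forebrain or rumen libraries, and neither comparison with liver passed (edgeR adjusted p = 0.287 for rumen). RPS2, a small subunit protein at the message entry site, was at 6428 and 4700 CPM in the rumen libraries, 4453 and 5510 in those of forebrain and 3817 and 3519 in those of liver. The rumen and forebrain libraries of RPS2 overlapped and no comparison passed. RPL15, at 1774 and 1219 CPM in Rumen 1 and 2, 1289 and 1330 in Forebrain 1 and 2, and 1135 and 529 in Liver 1 and 2, passed in none either. Nor did RPL8, at 2172 and 1827 CPM in rumen, 1258 and 1458 in forebrain, and 1606 and 1550 in liver.

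To see which members departed from the shift of the set, the same test was run with the summed member counts of each library as its size. Between rumen and forebrain few departed: 1 member was higher and 7 lower of 81. Of all tested genes 8.75% were higher and 49.1% lower on this scale, on which a gene with an unchanged TMM level counts as lower in rumen. These shares are set by the scale and are no chance rate for the members. Since most tested genes are called on it, the adjustment over all genes corrects little for a member. RPL36 rose from 0.367% and 0.465% of member counts in forebrain to 0.820% and 0.668% in rumen (log2 0.84 ± 0.27, SE, edgeR adjusted p = 0.0224), a call lost without any one of the forebrain or rumen libraries. RPS2 was 4.18% and 4.09% of member counts in forebrain and 2.20% and 1.87% in rumen (log2 −1.02 ± 0.28, SE, edgeR adjusted p = 0.00912), lost in the same 4 cases. The other members lower on this scale were RPL11, RPL15, RPL37A and the paralogs RPL26L1, RPL7L1 and RPS4Y1, of which RPL26L1 and RPS4Y1 passed whichever library was left out. The count was 0 higher and 2 lower without any one of the forebrain or rumen libraries, 13 higher and 18 lower without Liver 1, and 14 higher and 20 lower without Liver 2.

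More members departed in the comparisons with liver. Against liver, 7 members were higher in rumen and 15 lower relative to the set, beside 6.81% and 64.6% of all tested genes. Here too the shares of all genes are set by the scale, and the adjustment corrects little for a member. RPL39 was 0.386% and 0.288% of member counts in Liver 1 and 2, 0.971% and 1.07% in Rumen 1 and 2, and 0.975% and 0.977% in Forebrain 1 and 2. The forebrain shares lay within the rumen range and liver stood below both, by log2 1.60 ± 0.28 (SE, edgeR adjusted p = 0.00053) from rumen and by 1.53 ± 0.28 (SE, edgeR adjusted p = 0.000821) from forebrain. Both calls held without any single library. RPS25, at 0.875% and 0.855% in liver, 1.36% and 1.42% in forebrain and 1.62% and 1.68% in rumen, was higher in rumen than in liver by log2 0.93 ± 0.26 (SE, edgeR adjusted p = 0.00742), a call lost without Rumen 1 or Rumen 2. The others higher in rumen were RPL17, RPL23A, RPL26, RPL5 and RPLP1, all lost without Rumen 1 or without Rumen 2.

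On the opposite side were RPSA, RPS12 and RPL3. RPSA was 3.89% and 3.78% of member counts in liver, 2.05% and 1.96% in forebrain and 1.60% and 1.62% in rumen. Liver stood apart and its libraries were close, with rumen below liver by log2 −1.25 ± 0.26 (SE, edgeR adjusted p = 0.00162) and liver above forebrain by 0.93 (edgeR adjusted p = 0.0104); the first held without any single library and the second was lost without Forebrain 1 or Forebrain 2. RPS12 was 1.60% and 1.81% in liver, 0.850% and 0.862% in forebrain and 0.854% and 0.756% in rumen, and was higher in liver than in forebrain by log2 0.99 (edgeR adjusted p = 0.00759). RPL3, close to the peptidyl transferase centre, was 1.93% and 1.43% in liver, 0.862% and 0.749% in forebrain and 1.06% and 1.20% in rumen, and was higher in liver than in forebrain by log2 1.06 ± 0.28 (SE, edgeR adjusted p = 0.00768). The forebrain calls of RPS12 and RPL3 were lost without Forebrain 2, and that of RPS12 also without Forebrain 1.

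In liver against forebrain as a whole, 11 members were higher and 6 lower relative to the set, beside 37.8% and 19.5% of all tested genes. A gene with an unchanged TMM level counts as higher in liver on this scale, so those shares are no chance rate for members. Of these 17 members only RPS27L and RPL39 passed whichever library was left out. The 11 were RPL10A, RPL22L1, RPL28, RPL3, RPL7L1, RPL8, RPS12, RPS20, RPS27L, RPS9 and RPSA. The 6 were RPL26L1, RPL31, RPL35, RPL37, RPL39 and RPS25. These counts were 3 higher and 1 lower without Forebrain 1, 1 and 2 without Forebrain 2, 5 and 2 without Rumen 1 or Rumen 2, 19 and 19 without Liver 1, and 17 and 18 without Liver 2. In rumen against liver they were 1 and 6 without Rumen 1 or Rumen 2, 19 and 21 without Liver 1, and 22 and 18 without Liver 2. Relative to the set, none of the 7 listed tunnel proteins was higher in liver than in forebrain and 3 were lower, with a median of −0.65. As these 7 were listed with earlier results of these data known, this is a description only. RPL4, outside that list, did not pass (log2 0.36, edgeR adjusted p = 0.266).

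**Figure D3:**
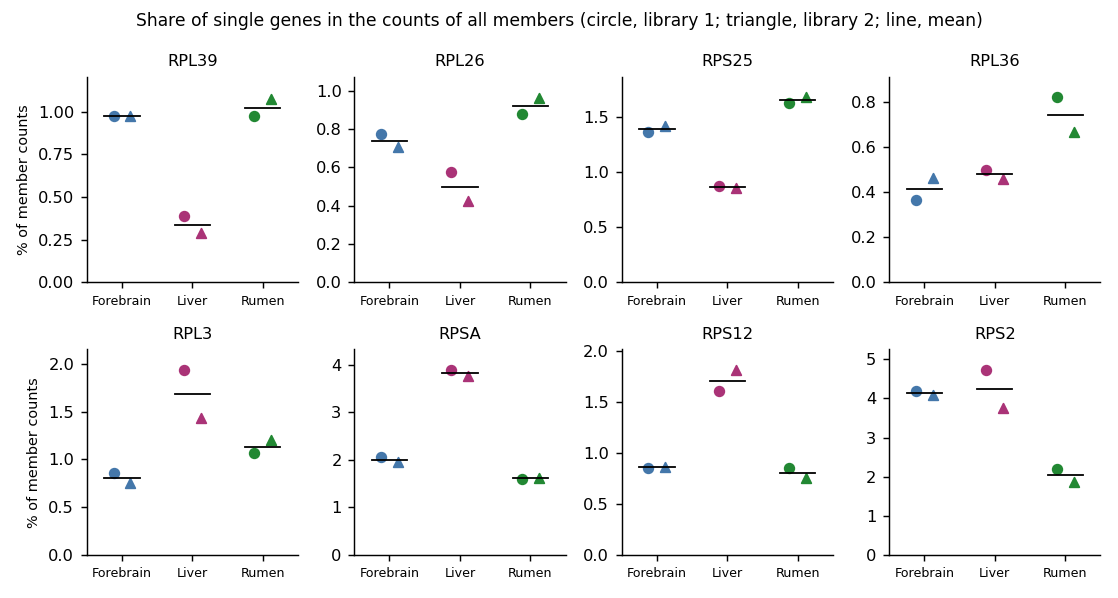
Share (%, axes from 0) of 8 genes in the counts of all ribosomal protein genes, by tissue; circles are library 1, triangles library 2 and lines the mean of the 2. RPL39, RPL26 and RPS25 are lowest in liver, RPL36 is highest in rumen, RPL3, RPSA and RPS12 are highest in liver, and RPS2 is lowest in rumen.

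Together the paralogs gave 0.611% and 0.697% of member counts in liver, 0.379% and 0.327% in forebrain and 0.196% and 0.218% in rumen. Of the 6 tested, 2 were higher in rumen than in forebrain (RPS27L and RPL22L1) and 1 was higher in rumen than in liver (RPL26L1), beside 20.3% and 21.2% of all tested genes, to which these counts of 6 lie close. The count against forebrain was 0 without Forebrain 1, 1 without Forebrain 2, Rumen 1 or Rumen 2, and 3 without Liver 2. That against liver was 0 without Rumen 1 or Rumen 2 and 2 without Liver 2. Their median log2 fold changes were −0.13 and −0.14, beside 1.16 and 1.58 over all members. In each pair the share of the paralog in the counts of both genes is given with an exact Clopper-Pearson 95% interval, which covers counting error only and is not corrected for length.

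RPL26L1, a relative of RPL26, had its highest values in forebrain. It stood at 57.3 and 52.8 CPM in the rumen libraries, 78.8 and 87.5 in those of forebrain and 25.7 and 26.9 in those of liver. It was 3.16-fold lower in liver than in forebrain (edgeR adjusted p = 0.000899), a call that held without any single library, and 2.09-fold higher in rumen than in liver (edgeR adjusted p = 0.00873), a call lost without Rumen 1 or Rumen 2. The rumen and forebrain values did not overlap but the difference did not pass (edgeR adjusted p = 0.0636). RPL26L1 made up 8.75% (8.22 to 9.29) and 8.43% (7.98 to 8.90) of the pair in Forebrain 1 and 2, 5.25% (4.72 to 5.82) and 6.36% (5.78 to 6.98) in liver, and 2.19% (2.03 to 2.35) and 2.13% (1.98 to 2.30) in rumen. Relative to the set it was lower in rumen than in forebrain by log2 −1.77 (edgeR adjusted p = 0.00105) and lower in liver by −1.20 (edgeR adjusted p = 0.00917), the latter lost without Forebrain 1.

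RPS27L, a target of p53 that resembles RPS27, was lowest in forebrain. It stood at 134 and 143 CPM in Rumen 1 and 2, 35.6 and 44.9 in Forebrain 1 and 2, and 86.1 and 142 in Liver 1 and 2, while RPS27 was at 1285 and 1158 CPM in rumen, 680 and 714 in forebrain, and 390 and 790 in liver. RPS27L was 3.44-fold higher in rumen than in forebrain (edgeR adjusted p = 0.00381) and 2.84-fold higher in liver than in forebrain (edgeR adjusted p = 0.00492), both lost without Forebrain 1. Rumen and liver overlapped. Its share of the pair was 4.98% (4.53 to 5.45) and 5.92% (5.47 to 6.38) in forebrain, 18.1% (17.2 to 19.1) and 15.3% (14.7 to 15.9) in liver, and 10.2% ± 1.10 (SD, n = 2) in rumen.

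RPL7L1, a relative of RPL7, was at 169 and 162 CPM in the rumen libraries, 131 and 133 in those of forebrain and 164 and 322 in those of liver, and passed in no comparison of levels. RPL7 itself was at 5055 and 4979 CPM in rumen, 1873 and 1886 in forebrain, and 1098 and 1152 in liver. RPL7L1 made up 6.56% ± 0.0509 (SD, n = 2) of the pair in forebrain, 17.4% ± 6.27 (SD, n = 2) in liver and 3.19% ± 0.058 (SD, n = 2) in rumen, with Liver 2 at 21.8% and Liver 1 at 13.0%. Relative to the set it was lower in rumen than in liver by log2 −2.16 (edgeR adjusted p = 0.000278) and higher in liver than in forebrain by 1.30 (edgeR adjusted p = 0.00615), the latter lost without Forebrain 2. RPS4Y1, a homologue of RPS4X, was at 45.8 and 35.6 CPM in Rumen 1 and 2, 60.7 and 69.7 in Forebrain 1 and 2, and 86.6 and 37.3 in Liver 1 and 2. Liver spanned both other tissues, and RPS4Y1 passed in no comparison of levels. RPS4Y1 made up 3.90% ± 0.129 (SD, n = 2) of the pair with RPS4X in forebrain, 6.06% ± 2.68 (SD, n = 2) in liver and 1.13% ± 0.103 (SD, n = 2) in rumen. RPL22L1 was at 169 and 153 CPM in the rumen libraries, 96.5 and 105 in those of forebrain and 131 and 123 in those of liver, 1.60-fold higher in rumen than in forebrain (edgeR adjusted p = 0.0298), a call lost without any one of the forebrain or rumen libraries.

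**Figure D4:**
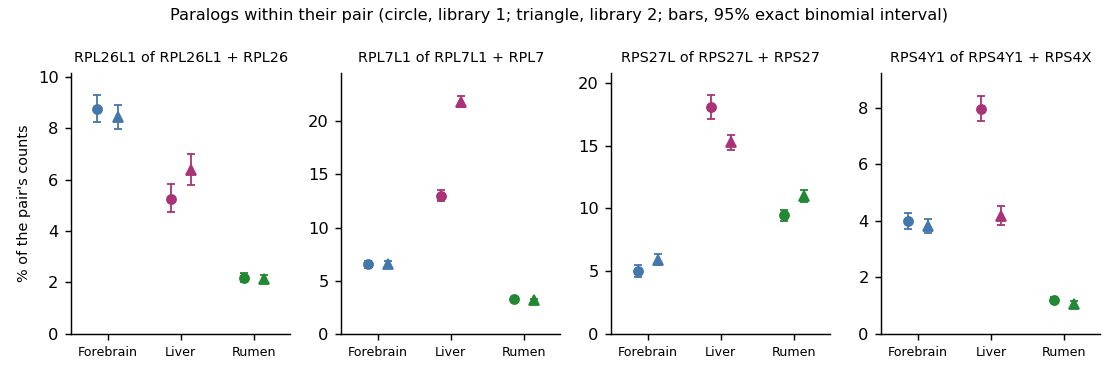
Share (%, axes from 0) of 4 paralogs in the summed counts of the paralog and its standard gene, by tissue; circles are library 1, triangles library 2, and bars the 95% exact binomial interval of each library. RPL26L1 is highest in forebrain and lowest in rumen, RPS27L is highest in liver, and RPL7L1 and RPS4Y1 differ widely between the liver libraries.

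Libraries of one tissue agreed closely for the members in forebrain and rumen and less in liver. The SD over members of the log2 ratio of library 2 to library 1 was 0.17 in forebrain, 0.18 in rumen and 0.44 in liver. For all other genes with mean counts from 1000 upwards in the tissue it was 0.25, 0.21 and 0.96. Those genes were not matched to the members in abundance, and the member values include RPL3L, with at most 23 counts in a library. The median ratio of the members was 0.31 in forebrain, 0.25 in liver and −0.20 in rumen, so Forebrain 2 and Rumen 1 were the higher libraries of their tissues across the set. The smallest spread between the libraries was in RPL7 in forebrain (0.497% relative SD), RPL29 in liver (0.544%) and RPS13 in rumen (0.424%). The largest was in RPS28 in forebrain, with 588 and 954 CPM, and in RPL3L in liver and rumen.

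The ribosomal components outside the rule were also compared. RACK1, the scaffold protein of the small subunit, was at 4431 and 3857 CPM in Rumen 1 and 2, 1873 and 2307 in Forebrain 1 and 2, and 1517 and 1843 in Liver 1 and 2, 1.98-fold higher in rumen than in forebrain (edgeR adjusted p = 0.0254) and 2.47-fold higher than in liver (edgeR adjusted p = 0.00911). FAU, which encodes RPS30 fused to a ubiquitin-like protein, was at 1658 and 1110 CPM in Rumen 1 and 2, 823 and 1164 in Forebrain 1 and 2, and 546 and 446 in Liver 1 and 2, 2.79-fold higher in rumen than in liver (edgeR adjusted p = 0.00856). In both genes the rumen values were above the liver values. The call of RACK1 against forebrain was lost without any one of the forebrain or rumen libraries, that of RACK1 against liver without Rumen 1 or Rumen 2, and that of FAU without Rumen 1.

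Other messages with a 5′ TOP tract were often higher in rumen. Most of the factors that assemble ribosomes did not pass, though the RNA polymerase I genes lay mostly above forebrain. Of 21 other TOP messages, among them elongation and initiation factors, 12 were higher and 1 lower in rumen than in forebrain (median log2 fold change 0.99), and 16 of the 21 were higher in rumen than in liver (median 1.34), the rest not passing. Of 43 assembly factors of the small subunit 5 were higher and 4 lower in rumen than in forebrain (median −0.00), and 2 higher and 4 lower against liver (median −0.16). Of 41 assembly factors of the large subunit 6 were higher against forebrain and the rest did not pass (median 0.25), and 2 higher and 5 lower against liver (median −0.21). Of 11 genes of RNA polymerase I, which transcribes ribosomal RNA, 4 were higher against forebrain (median 0.86, 10 positive) and 5 against liver (median −0.00, 5 positive). Of 14 proteins of snoRNPs, which modify ribosomal RNA, 1 was higher and 1 lower against forebrain (median 0.11). Against liver 1 snoRNP protein was higher and 2 were lower (median −0.01). These 4 lists together held 109 tested genes, of which 16 were higher and 5 lower in rumen than in forebrain and 10 higher and 11 lower than in liver. Of 14 chaperones of ribosomal proteins and nucleolar proteins 4 were higher against forebrain (median 0.56) and 6 against liver (median 0.74). The backgrounds of 20.3% and 21.2% of genes higher and 21.5% and 21.8% lower apply here too. Counts of these lists, here and below, were not recomputed with single libraries left out. NACA stands in both the TOP and the chaperone lists.

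Single genes of these lists are given next. TPT1, a TOP message that encodes a translationally controlled tumour protein, was at 12931 and 11972 CPM in the rumen libraries, 2163 and 2874 in those of forebrain and 4286 and 3828 in those of liver, 4.94-fold higher in rumen than in forebrain (edgeR adjusted p = 0.00195). EEF1D, a subunit of the exchange factor of elongation, was at 1323 and 1037 CPM in Rumen 1 and 2, 138 and 167 in Forebrain 1 and 2, and 430 and 504 in Liver 1 and 2, 7.72-fold higher in rumen than in forebrain (edgeR adjusted p = 0.000261). NPM1, a nucleolar chaperone, was at 714 and 716 CPM in the rumen libraries, 283 and 295 in those of forebrain and 277 and 176 in those of liver, 3.16-fold higher in rumen than in liver (edgeR adjusted p = 0.00285). Rumen was the highest tissue in these 3 genes, and each call held without any single library. RUVBL1, a helicase of snoRNP assembly, went the other way, with 42.0 and 29.5 CPM in Rumen 1 and 2, 132 and 118 in Forebrain 1 and 2, and 166 and 119 in Liver 1 and 2, 3.97-fold lower in rumen than in liver (edgeR adjusted p = 0.00185).

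Of the 109 assembly genes 30 were higher and 14 lower in liver than in forebrain (median 0.26). Among all tested genes 30.5% were higher and 27.3% lower, so the count of assembly genes higher in liver was near that of all genes. RRP12, which takes part in export of the small subunit, was at 58.1 and 101 CPM in liver and 21.0 and 19.9 in forebrain, 3.91-fold higher (edgeR adjusted p = 0.00247). MYC, a transcription factor that drives many genes of ribosome production, was at 83.6 and 62.7 CPM in liver, 26.4 and 19.6 in forebrain and 35.4 and 32.7 in rumen. MYC was higher in liver than in forebrain by log2 1.67 (edgeR adjusted p = 0.00253). The 16 listed genes of mTORC1 and TOP control had 9 higher and 3 lower in liver than in forebrain. Of 4 proliferation markers all 4 were higher in liver than in forebrain and all 4 were lower in rumen than in liver, with summed CPM of 668 to 863 in liver, 264 to 285 in rumen and 102 to 107 in forebrain. The part of proliferation in the members' differences was not tested.

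**Figure D5:**
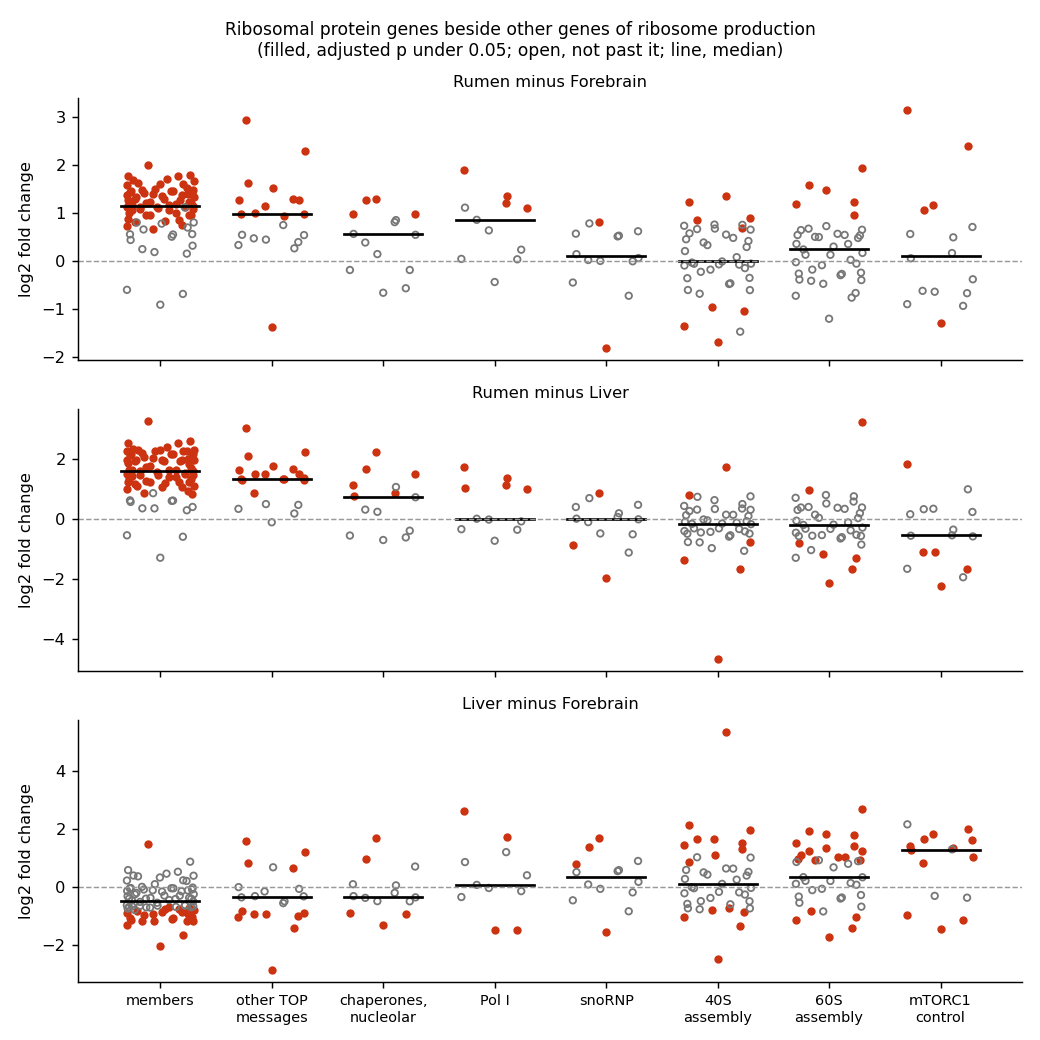
Log2 fold change of each tested gene in 8 lists of ribosome production for the 3 comparisons; filled points have adjusted p under 0.05, open points do not, and lines are medians. The members and the other TOP messages lie mostly above 0 in both rumen comparisons, with medians of 1.16 and 0.99 and of 1.58 and 1.34, while the small and large subunit assembly factors centre near 0.

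Cell makeup moved with the tissues. Fibroblast markers (5 genes) summed to 15599 to 16310 CPM in rumen, 721 to 934 in liver and 56.9 to 123 in forebrain, and smooth muscle markers (5 genes) to 7656 to 8192, 161 to 239 and 40.3 to 62.7 CPM. Of the neuron markers TUBB3, DCX and ELAVL4 had no counts in liver, of the hepatocyte markers AFP, AHSG and SERPINA1 had none in forebrain, and of the epithelium markers TP63 and IVL had none in forebrain or liver. The part of cell makeup in the members' differences was not tested. Between the 2 liver libraries, where erythroid markers differed from 147036 to 55282 CPM, the member share was 6.56% and 7.87%.

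The genes of the members were also compared with the RefSeq annotation (ARS-UCD2.0), in which all 82 were found as protein-coding genes. Small nucleolar RNA genes lie inside 27 members (32.9%), 57 such genes in all, against 203 of 12820 matched coding genes of the table (1.58%). RPL7A holds 5. Another coding gene overlaps 8 members (RPL35, RPL35A, RPL36, RPS23, RPS25, RPS27, RPS6 and RPS9), which is 9.8% against 17.4% of coding genes. Ribosomal protein genes have many processed pseudogenes, and no source used here gives how reads that match several places were counted, so counts of single members are uncertain to that extent.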

How the data were processed

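Poly(A) RNA of 3 fetal tissues was sequenced with 2 libraries each. The authors deposited a table of raw read counts, with a row per gene symbol and a column per library. Per the submitters' processing notes, HISAT2 2.0.5, featureCounts 1.5.0-p3 and edgeR 3.18.1 were used. Which build, annotation, strand setting and treatment of multi-mapped reads were used is not given in the sources used here. The library kit is a NEBNext Ultra kit, per the labels' protocols.

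Of the 14179 symbols, the 11478 that passed the count filter entered the fit. edgeR 4.0.16 in R 4.3.3 (filterByExpr, 11478 genes; TMM factors 1.20 and 1.13 in forebrain, 0.812 and 0.840 in liver, 1.01 and 1.07 in rumen; 1 mean per tissue; 3 residual degrees of freedom) gave 3 comparisons, adjusted over all tested genes with a threshold of 0.05. The comparisons share libraries in pairs. Fold changes include the prior count of edgeR, and the SE is the log2 fold change over the root of the F statistic. The second fit used summed member counts as library sizes and no scaling factor. Scripts were tested on simulated data.

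Members named with values were the 5 with the largest log2 fold change in each direction of each comparison, the 4 in the second fit, the paralog pairs, RPLP0, RPLP1, RPLP2, RPSA, RPL5, RPL11, RPS6, RPS19, the 5 with the most counts, and those with extreme spread or no counts. RPL8, RPL19 and RPL35 were named after their values were seen. The members and the lists were chosen with earlier results of these data known. Alternatives were other scalings, no filter, DESeq2 1.42.0, limma-voom (limma 3.58.1), a replicate block and leaving out libraries. Sequences are not shown, and a few genes are not reported here.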

Additional observations from a re-analysis of the deposited data

How the results depend on the processing

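The member medians of the 3 comparisons kept their direction under every alternative run. Single members did not always: in liver against forebrain 14 log2 fold changes were positive with all libraries and 27 without Forebrain 2, and in rumen against forebrain 3 were negative with all libraries and 5 without Rumen 1. With plain totals, RLE factors or DESeq2, 1 member was lower in rumen than in forebrain, and without both liver libraries (chosen after seeing the data) 2 were. With plain totals the median in rumen against liver was 1.92, and in liver against forebrain 53 members were lower with a median of −0.97. DESeq2 and limma-voom each called 2 members higher in liver than in forebrain. TMM over non-member genes, also chosen after seeing the data, gave 63 and 69 members higher in rumen.

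Leaving out 1 library at a time, 7 to 75 members were higher in rumen than in forebrain and 0 to 2 lower (median 1.03 to 1.37). Against liver 37 to 72 were higher and 0 to 1 lower (median 1.42 to 1.75). In liver against forebrain 0 to 5 were higher and 2 to 42 lower (median −0.64 to −0.32). Relative to the members' sum the ranges were 0 to 14 higher and 2 to 20 lower, 1 to 22 and 6 to 21, and 1 to 19 and 1 to 19. The lone library of a tissue was then assumed to vary like the others. The causes were not tested.

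Relative to the members' sum, RLE factors over the members gave 3 lower in liver than in forebrain. The share of counts was 12.1% in forebrain and 8.72% in liver on effective library sizes, 11.3% in liver and 32.1% in rumen without the 50 largest non-members, and 11.8%, 6.22% and 24.1% in forebrain, liver and rumen without the 5 largest members.

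With the replicate number as a block, 54 members were higher in rumen than in forebrain, 67 higher than in liver, and 1 higher and 17 lower in liver than in forebrain; 7 were higher there relative to the members' sum. The numbers were not shown to pair samples. Over all tested genes, deviations of same-numbered libraries correlated at 0.08 (forebrain and liver), −0.09 (forebrain and rumen) and 0.02 (liver and rumen). Over the members the correlations were 0.07, −0.35 and 0.28 in the same order.

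Depth limits mainly RPL3L and RPL10L, with at most 23 counts and no counts in a library.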
